A study of Mus musculus with 3 samples.

Results

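Cathepsins are the proteases of lysosomes, and 8 of their genes were followed here through single cells of the subventricular zone, the stem cell niche that lines the lateral ventricles of the adult mouse brain. The 8 genes, Ctsa, Ctsb, Ctsd, Ctsf, Ctsh, Ctsl, Ctss and Ctsz, were chosen by name among the 16178 genes of the expression table. The 149 cells came from male C57BL/6J mice supplied by Envigo, whose age the labels do not state, and the labels name no treatment. Tissue was pooled from 8 mice per experiment by the labels' protocols, although the design text can also be read as 8 mice over all 3 days. It was dissociated with trypsin, enriched on columns for GLAST (the Slc1a3 product, a transporter of glutamate), and sorted singly onto plates, with myelin removal in 2 of the 3 experiments. All 3 plates form 1 group of labelled neural stem cells. Autofluorescence, the light that a cell emits without any dye, is given for each cell in arbitrary units. Because animals were pooled, a plate is the unit of replication, and differences between animals cannot be seen.

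Plates 1, 2 and 3 held 43, 45 and 61 cells, with 297573, 413728 and 478504 estimated transcripts. SORT-seq, the plate method used, counts each captured transcript once by its 3′ end, so levels of different genes can be set side by side without division by gene length. Levels are given below as CPM, a gene's estimated transcripts scaled to 1000000 transcripts of the summed cells of 1 plate and cluster, for sums of at least 3 cells. There were 11 such sums over the authors' 5 clusters. Cells shared well names between plates, with 50 of 86 names used by kept cells of more than 1 plate, so each cell was identified by plate and well together.

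Cathepsins are made as inactive precursors, carried to the lysosome largely by mannose 6-phosphate receptors, and activated there by cleavage in the acid lumen. Ctsb, Ctsf, Ctsh, Ctsl, Ctss and Ctsz encode papain-like cysteine proteases, Ctsd encodes the main aspartic protease of the lysosome, and Ctsa encodes a serine carboxypeptidase that also protects lysosomal β-galactosidase and the sialidase Neu1. Microglia, the phagocytes of the brain, are known for abundant cathepsin S, which stays active at neutral pH. Undigested residues of lysosomal breakdown can accumulate as lipofuscin, a pigment with a broad autofluorescence, which is the background to asking how cathepsin transcripts relate to that signal.

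The labelled cell type was checked against marker genes. Cluster 1, with 36 cells, had the highest level of 9 of 9 microglia markers, summing to 34417 to 36879 CPM on its plates against 117 to 818 CPM in the sums of the other clusters. The 5 measured markers of border macrophages were at 0 in every sum of at least 3 cells. Clusters 0 and 2, with 42 and 35 cells, shared the highest levels of the 7 oligodendrocyte markers, 3 in cluster 0 and 4 in cluster 2. Cluster 3, with 30 cells, led for 7 of 8 markers of quiescent stem cells or astrocytes, and cluster 4, with 6 cells, led for 6 of 6 markers of dividing cells. The label names neural stem cells, whose markers were mostly led by clusters 3 and 4. The clusters are called microglia-like (1), oligodendrocyte-like (0 and 2), quiescent stem or astrocyte-like (3) and dividing (4). The plates held the clusters unevenly: cluster 1 had 9, 18 and 9 cells on plates 1, 2 and 3, cluster 0 had 1, 15 and 26, cluster 2 had 3, 10 and 22, cluster 3 had 25, 1 and 4, and cluster 4 had 5, 1 and 0.

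All 8 genes were detected, and the microglia-like cells held most of the transcripts of some of them but not of others. Ctsb was the most abundant with 994 estimated transcripts in all cells, of which cluster 1 held 36.1%. Ctsd had 818 transcripts with 77.6% in cluster 1, and Ctss had 754 with 94.4% there. Ctss and Ctsd were thus largely microglia-like transcripts, whereas most Ctsb transcripts lay in other cells. Ctsl had 232 transcripts with 42.7% in cluster 1, Ctsa 214 with 31.8% and Ctsz 200 with 65.5%. Ctsf, with 85 transcripts and 18.8% in cluster 1, and Ctsh, with 46.0 and 82.6%, were the rarest. For 7 of the 8 genes, all but Ctsf, the lowest plate of cluster 1 lay above every sum of the other clusters. The same held for 7.72% of the 7599 genes with at least 20 transcripts. The clusters were drawn from these expression values, so these levels are a description and no test was made between clusters.

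Ctss, at chr3:95526786-95556403 on the plus strand (mm10), encodes cathepsin S, an endopeptidase that trims the invariant chain of MHC class II. Its level in cluster 1 was 5714, 5779 and 4872 CPM on plates 1, 2 and 3. The plates lay close together, with a mean of 5455 ± 506 CPM (SD, n = 3). In cluster 3, the next in order, Ctss had a mean of 84.2 ± 119 CPM (SD, n = 2) and was at 0 on plate 3. The ratio of these 2 means was 64.8. It is imprecise, since the 0 comes from 4 cells, in which 3 transcripts would already be 134 CPM. The plate ranges of clusters 3, 2 and 4, which followed cluster 1, overlapped. Ctsd, at chr7:142375911-142388038 on the minus strand, was at 4727, 5451 and 3906 CPM in cluster 1, a mean of 4695 ± 773 (SD, n = 3). Cluster 3 had 327 ± 209 CPM of Ctsd (SD, n = 2), cluster 2 had 171 ± 102 (n = 3) and cluster 0 had 140 ± 5.70 (n = 2). Ctsd was therefore 14.4 times as high in the microglia-like cells as in the next cluster, and clusters 3, 2 and 0 did not separate in order.

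The starts of these 2 genes, and of Ctsa, are shown because the genes are set against each other below. Ctss is led by the microglia-like cells, and Ctsd is high there and present elsewhere. Ctsa is also highest there, but most of its transcripts lie in other clusters. RefSeq promoters (GRCm38.p6) matched 6 of the 8 genes, with 7 start sites. The 250 bases before the start were searched on both strands for CACGTG, a palindrome bound by TFEB and other basic helix-loop-helix factors, for GAGGAA, the core of PU.1 sites, and for an interferon response element of GAAA, any 2 bases and GAAA again, and matches are in capitals. None of the matches shown overlaps another. They lie at chr3:95526536-95526785 on the plus strand (Ctss), chr7:142387828-142388077 on the minus strand (Ctsd) and chr2:164833523-164833772 on the plus strand (Ctsa, the second of its start sites), each printed 5′ to 3′ along the gene.
Ctss: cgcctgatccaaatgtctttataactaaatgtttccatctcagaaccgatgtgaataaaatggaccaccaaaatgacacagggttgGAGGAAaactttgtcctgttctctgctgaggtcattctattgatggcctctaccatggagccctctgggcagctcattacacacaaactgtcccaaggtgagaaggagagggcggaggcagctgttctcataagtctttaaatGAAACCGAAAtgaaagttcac
Ctsd: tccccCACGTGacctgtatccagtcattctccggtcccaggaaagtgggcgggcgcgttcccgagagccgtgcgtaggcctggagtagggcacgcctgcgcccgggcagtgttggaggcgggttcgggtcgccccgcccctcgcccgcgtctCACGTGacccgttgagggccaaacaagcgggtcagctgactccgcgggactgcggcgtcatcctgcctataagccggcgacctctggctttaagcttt
Ctsa: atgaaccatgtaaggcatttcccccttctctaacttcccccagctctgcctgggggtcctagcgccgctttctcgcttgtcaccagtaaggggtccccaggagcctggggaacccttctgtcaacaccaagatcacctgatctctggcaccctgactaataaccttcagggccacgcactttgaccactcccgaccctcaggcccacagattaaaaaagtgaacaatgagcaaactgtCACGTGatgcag
The Ctss window held GAGGAA beginning 164 bases and the interferon response element beginning 21 bases before the start, and no CACGTG. The Ctsd window held CACGTG at 245 and 98 bases, and the Ctsa window shown held it at 12 bases. The window of the first Ctsa start site held none of the 3 motifs. Of the other genes matched, Ctsl held CACGTG at 236 bases and Ctsf at 79 bases, and the Ctsz window held none of the 3 motifs. Over all 32851 promoters, 6.02% held CACGTG, 23.3% held GAGGAA and 2.98% held the interferon response element. Distances are counted from the RefSeq starts, which can differ from the ends of the gene positions printed here. The windows of Ctsd and Ctsf reach partly into those positions. The Ctsl window and that of the second Ctsa start lie wholly inside them. These matches are letters in a window and say nothing of binding in these cells.

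The exopeptidases Ctsz and Ctsh were also led by the microglia-like cells. Ctsz, a carboxypeptidase gene at chr2:174427493-174439039 on the minus strand, was at 1281, 938 and 1007 CPM in cluster 1. In cluster 3 it was at 136 ± 2.22 CPM (SD, n = 2), and the ratio of cluster 1 to cluster 3 was 7.90. Plate 3 gave 3 Ctsz transcripts from 4 cells of cluster 3, so the small SD is not a measure of precision. Ctsh, an aminopeptidase gene at chr9:90054152-90076089 on the plus strand, was at 269, 272 and 419 CPM in cluster 1. In cluster 3 its mean was 15.3 CPM, which rests on few molecules, so its ratio of 20.9 is imprecise. Outside cluster 1 the plate ranges of Ctsh overlapped between all neighbours in the order of levels.

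The remaining endopeptidase genes were less unequal between clusters. Ctsb, at chr14:63122462-63145923 on the plus strand, encodes an endopeptidase that also removes dipeptides from carboxyl ends. Its level in cluster 1 was 2833, 3122 and 1889 CPM, against 916 ± 90.1 CPM in cluster 3 (SD, n = 2), 807 ± 228 in cluster 2 (n = 3), 511 ± 56.0 in cluster 0 (n = 2) and 86.9 in the 1 sum of cluster 4. Clusters 3 and 2 overlapped, while the sums of cluster 0 lay below both and the dividing cells were lowest. Ctsl, at chr13:64359337-64370890 on the minus strand, encodes cathepsin L and was at 371, 992 and 629 CPM in cluster 1 and 228 ± 132 CPM (SD, n = 2) in cluster 3. Its plates spread more widely in cluster 1 than those of Ctss or Ctsd, and it was at 0 in the sum of cluster 4. The ratio of cluster 1 to the next cluster was 2.85 for Ctsb and 2.91 for Ctsl. Ctsf, at chr19:4855130-4860918 on the plus strand, had its highest mean in cluster 3, at 162 ± 24.1 CPM (SD, n = 2), with 107 ± 66.6 CPM (n = 3) in cluster 1, and these ranges overlapped.

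Ctsa, at chr2:164832873-164841032 on the plus strand, was at 505, 570 and 461 CPM in cluster 1. Cluster 2 followed with 180 ± 74.5 CPM (SD, n = 3) and cluster 3 with 174 ± 56.3 (n = 2), and these overlapped. Cluster 0 was lower, at 82.8 ± 20.8 CPM (n = 2), and the 5 dividing cells of plate 1 had no Ctsa transcript.

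**Figure D1:**
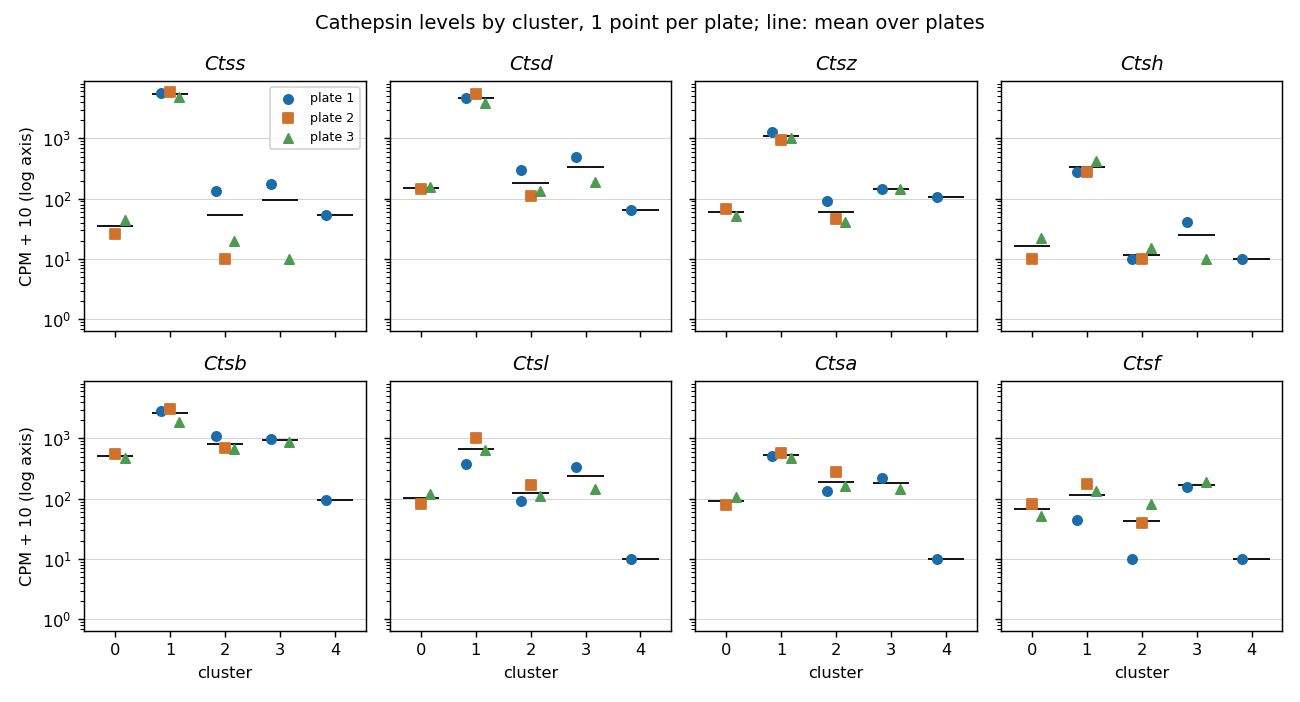
Level of each cathepsin gene in CPM on a log axis, for each cluster and plate with at least 3 cells. Each point is 1 sum and the marker shape gives the plate; the cluster 1 sums lie above all others for every gene except Ctsf, with Ctss between 4872 and 5779 CPM.

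The 8 genes together reached 15444 ± 2004 CPM in cluster 1 (SD, n = 3). They reached 2043 ± 606 CPM in cluster 3 (n = 2), 1403 ± 322 in cluster 2 (n = 3) and 964 ± 14.0 in cluster 0 (n = 2), and 282 CPM in the sum of cluster 4. Microglia-like cells thus had both the largest cathepsin pool and a different leading gene.

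In that pool Ctss took 35.5 ± 1.76% of the cathepsin transcripts of cluster 1, Ctsd 30.3 ± 1.12% and Ctsb 16.8 ± 2.22% (SD, n = 3 plates). Ctss was above Ctsd on 3 of 3 plates, but the exact 95% binomial intervals of their shares overlapped on each plate, as on plate 2, where Ctss had 33.4% (30.8 to 36.1%) and Ctsd 31.5% (29.0 to 34.2%). These intervals cover counting error only. In clusters 0, 2 and 3 the leading gene was Ctsb, with 52.9 ± 5.04% (n = 2), 57.2 ± 3.52% (n = 3) and 46.2 ± 9.29% (n = 2) of cathepsin transcripts. Cluster 4 had too few molecules to name a leader: of 26 identifiers on plate 1, Ctsz had 9 and Ctsb 8. With every cell thinned to 1000 identifiers, the Ctsb share was 59.7% in cluster 0 and 70.8% in cluster 2, and Ctsb led both. Few molecules were left after thinning: in cluster 2, 14 of 35 cells held a Ctsb identifier and 4 a Ctsa identifier.

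**Figure D2:**
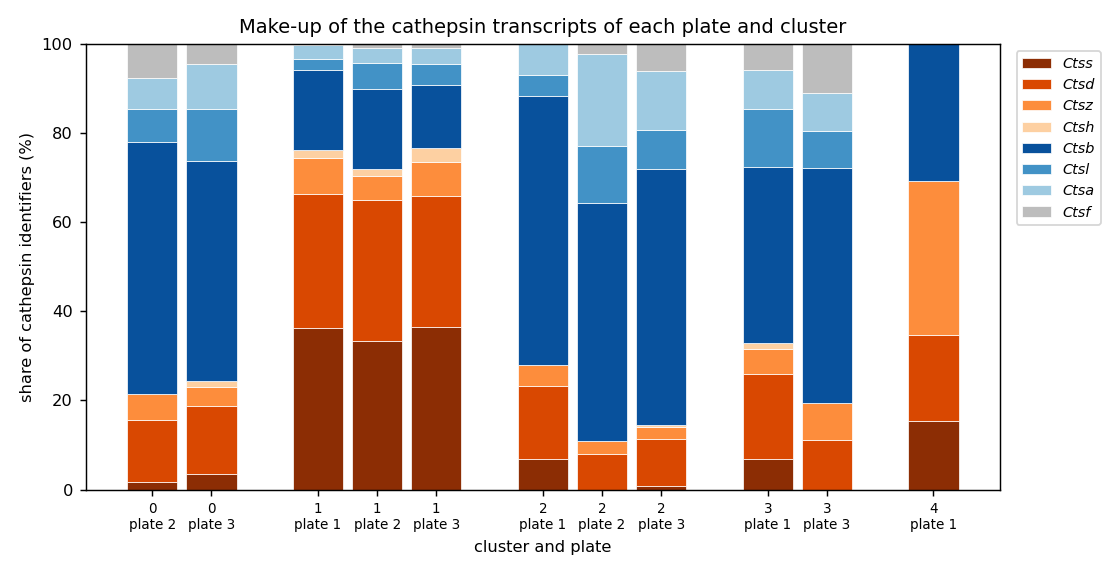
Share of each gene among the transcripts of the 8 cathepsin genes, in percent, as 1 stacked bar per cluster and plate with at least 3 cells. Ctss and Ctsd fill most of the bars of cluster 1, and Ctsb is the largest segment in clusters 0, 2 and 3.

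The same order appeared cell by cell. Ctss was the highest cathepsin in 19 of the 36 cells of cluster 1, Ctsd in 15 and Ctsb in 1, with 1 tie. Ctsb was highest in 32 of 42 cells of cluster 0, in 28 of 35 cells of cluster 2 and in 16 of 30 cells of cluster 3, where Ctsd was highest in 4. A Ctss transcript was detected in 97.2% of the cells of cluster 1, and in the same share after thinning to 1000 identifiers per cell, which no cell fell short of. In cluster 0 the share was 16.7% and 2.38% after thinning, in cluster 3 it was 26.7% and 3.33%, and in cluster 2 it was 11.4%. After thinning no Ctss identifier was left in cluster 2, which shows only that its level lay below what 1000 identifiers per cell can detect. Median transcripts per cell were 9530, 3455, 8615, 4192 and 17377 in clusters 0 to 4, so the cluster with the most Ctss was also the shallowest.

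Cathepsin transcripts were also set against the microglia markers in each cluster. Per 100 transcripts of the 9 microglia markers, Ctss had 15.4 in cluster 1 and 10.0, 7.58, 19.8 and 10.3 in clusters 0, 2, 3 and 4. Those clusters held 11, 5, 22 and 4 Ctss identifiers, and 13 of the 22 in cluster 3 came from 1 cell of plate 1, which also held 38.0 microglia marker transcripts against a median of 3 in that cluster. The Ctss ratios outside cluster 1 thus rest on few molecules. Per 100 microglia marker transcripts, Ctsd had 13.8 in cluster 1 and 57.3, 68.2, 63.1 and 12.8 in clusters 0, 2, 3 and 4. Ctsb had 7.78 in cluster 1 and 205, 379, 135 and 23.1 in the others. Ctsa had 1.47 in cluster 1, 41.8, 105 and 27.9 in clusters 0, 2 and 3, and 0 in cluster 4. The ratios of all 3 genes were higher in clusters 0, 2 and 3 than in cluster 1, while that of Ctsd in cluster 4 was close to that in cluster 1. Free RNA and doublets were not tested as sources of the microglia transcripts in other clusters, and no doublet caller was run.

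**Figure D3:**
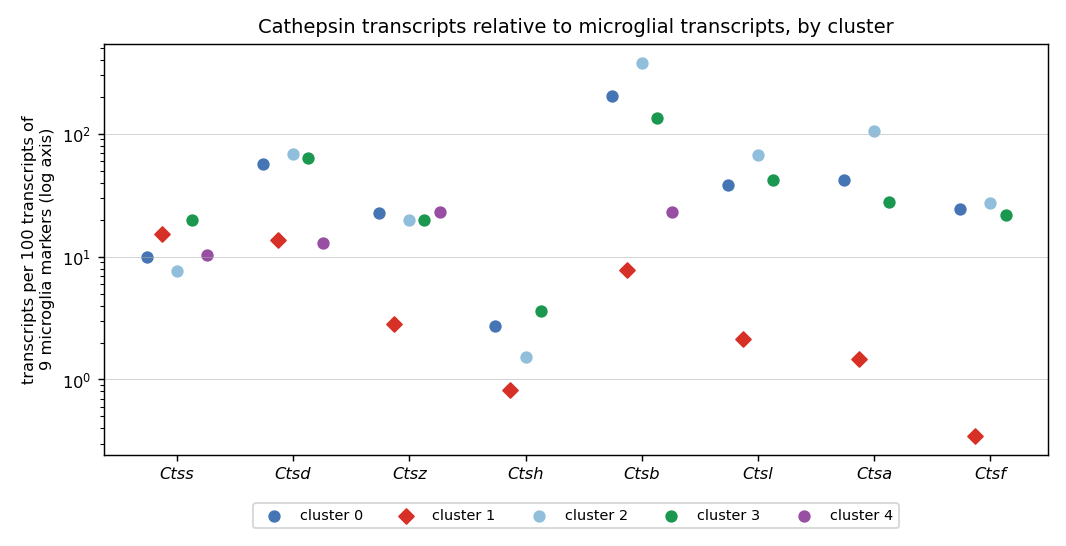
Transcripts of each cathepsin gene per 100 transcripts of the 9 microglia markers, on a log axis, with 1 point per cluster. The Ctss points of the 5 clusters lie between 7.58 and 19.8, whereas those of Ctsb run from 7.78 in cluster 1 to 379 in cluster 2; values of 0 are not drawn.

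Of the genes around the 8 cathepsins, the inhibitor Cst3 had the highest level. Cst3 encodes cystatin C, a secreted inhibitor of cysteine cathepsins, and had a mean of 35633 CPM in cluster 1, 20404 in cluster 3, 2062 in cluster 4, 851 in cluster 2 and 559 in cluster 0. The summed cathepsins include Ctsd and Ctsa, which do not encode cysteine proteases. Set against this sum, cluster 3 had 10.6 ± 4.12 Cst3 transcripts per cathepsin transcript (SD, n = 2) and cluster 1 had 2.31 ± 0.0989 (n = 3). The 1 sum of cluster 4 had 7.30. The oligodendrocyte-like clusters had fewer Cst3 than cathepsin transcripts, with 0.580 ± 0.0909 in cluster 0 (n = 2) and 0.559 ± 0.323 in cluster 2 (n = 3). Cstb, the intracellular cystatin B, had another order, with 260 CPM in cluster 2 and 153 in cluster 0. Among the other cathepsins, Ctsc, which activates serine proteases of granules, was at 471 CPM in cluster 1 and had a mean of at most 22.9 elsewhere. Ctsk, best known from osteoclasts, was at 63.2 CPM in cluster 0 and 46.6 in cluster 2 and at 0 in the sums of clusters 1, 3 and 4. Lgmn, the legumain that cleaves cathepsin precursors, was at 2463 CPM in cluster 1 and 229 in cluster 0, its next cluster. Sort1, a sorting receptor for lysosomal proteins, was highest in the oligodendrocyte-like clusters, at 580 CPM in cluster 0 and 410 in cluster 2.

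The genes most like each cathepsin over the 11 sums were ranked by Pearson r of log2(CPM + 10) among 7599 genes. The sums share plates and differ in depth, so r is a description. Ctss was nearest to Csf1r, Rnase4 and Kctd12, each with r = 0.98, and Ctsz to Selplg (0.99), C1qb (0.98) and Pmepa1 (0.97). Csf1r and C1qb are microglia markers. Ctsd was nearest to Hexa (0.98), Sfpi1 (0.98), which encodes PU.1, and Ifnar2 (0.97). Ctsb was nearest to Psap (0.98), which encodes prosaposin, and then to Tcn2 and Ctsa, both 0.95. Ctsa and Ctsl were nearest to each other (0.96), with Psap among the next genes of both, at 0.94 and 0.95.

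Autofluorescence was then compared by splitting the cells of each plate at their median, and the summed cells above the median were tested against the rest with edgeR's quasi-likelihood test, blocking on plate and adjusting p by Benjamini-Hochberg over all genes. Over all cells, Ctss, Ctsd and Ctsz were higher in the more autofluorescent cells. Ctss was at 1412, 1965 and 486 CPM in the high cells of plates 1, 2 and 3 and at 128, 186 and 21.8 CPM in the low cells. The log2 difference was 3.67 (SE 0.37, edgeR adjusted p = 5.4e-06). Ctsd was at 1530, 1990 and 510 CPM in high cells and 151, 241 and 122 in low cells, a log2 difference of 2.84 (SE 0.36, edgeR adjusted p = 4.2e-05). Every high sum of both genes lay above every low sum. Ctsz was at 400, 375 and 140 CPM against 122, 55.6 and 34.9, a log2 difference of 2.16 (SE 0.39, edgeR adjusted p = 0.00107), with the high sums again above all low sums. Without plate 2 the Ctsz difference was 1.88 and no longer passed (edgeR adjusted p = 0.227).

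Ctsl, Ctsa and Ctsb differed by 1.54, 1.14 and 1.15 on the log2 scale, with edgeR adjusted p of 0.0546, 0.0824 and 0.0887. These values lie near the threshold of 0.05 and moved across it with the setting. Ctsl passed with RLE size factors (edgeR adjusted p = 0.0454), without a filter on low counts (0.0113), without plate 1 (0.0031) and without plate 3 (0.00761), and its difference ran from 0.96 to 2.28 with 1 plate left out. Ctsb passed without a filter (edgeR adjusted p = 0.0268), in thinned cells (0.042) and without plate 1 (0.0424), and Ctsa without plate 1 (edgeR adjusted p = 0.00832). Ctsf differed by 0.39 (SE 0.45, edgeR adjusted p = 0.853), and Ctsh was too rare to be tested, with 10, 20 and 12 transcripts in high cells against 2, 0 and 2 in low cells. In this comparison 4.03% of 3723 genes were called in either direction and 3.89% were higher. Of the 7 cathepsin genes tested, 3 were called, all higher, and their median log2 difference was 1.54, beside -0.04 over all genes. The mix of cells moved with it: high cells included 8, 15 and 9 cells of cluster 1 on plates 1, 2 and 3 and low cells 1, 3 and 0. Cluster 1 supplied 22.4, 32.5 and 9.56% of the transcripts of the high sums and 0.937, 4.39 and 0% of the low sums, and 8 of the 8 microglia markers tested were higher. Sums over all clusters cannot tell more microglia-like cells from more RNA per cell, and the part of each was not tested. Splits within clusters are given below.

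Genes of the surrounding pathway were tested in the same fit. Higher in autofluorescent cells were Ctsc, by 3.15 on the log2 scale (edgeR adjusted p = 0.00199), Lrp1, an endocytic receptor, by 2.69 (0.000888), and Cst3 by 2.20 (5.13e-05), each by edgeR's test. Grn, which encodes progranulin, was higher by 2.18 (edgeR adjusted p = 0.00241) and Lgmn by 1.78 (edgeR adjusted p = 0.00575). These were 1 of 2 other cathepsins tested, 1 of 3 inhibitors, 2 of 7 genes of activation and delivery and 1 of 2 partners and regulators, with none lower. The filter on low counts admits a gene that is above its limit in 1 class alone. Ctsc entered in this way, with a mean of 109 CPM in the high sums and 11.8 CPM in the low sums, so its call is weak support. Sort1 and Psap did not pass, at -0.58 and 0.80.

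Leaving out the microglia-like cells, no cathepsin gene tested passed, and Ctss and Ctsh were too rare to be tested. Of 2913 genes tested, 0.378% were called in either direction and 0.343% were higher, and of the cathepsins 6 were tested and 0 called, beside 204 genes with an unadjusted p under 0.05. Ctsa was at 182, 159 and 165 CPM in the high cells of plates 1, 2 and 3 and at 133, 123 and 53.1 in the low cells, so that it was higher on 3 of 3 plates. Its log2 difference was 0.88 (SE 0.42, edgeR adjusted p = 0.703). Ctsd was at 473, 139 and 144 CPM against 158, 115 and 124, also higher on 3 of 3 plates, with a log2 difference of 0.81 (SE 0.42, edgeR adjusted p = 0.753). Ctsb, the leading gene of these cells, was higher on plate 1 alone, at 1038 against 361 CPM, and lower on plates 2 and 3, at 572 against 628 and 555 against 608. Its log2 difference was 0.48 (SE 0.41) and became -0.12 without plate 1. The mix of clusters differed most on that plate: cluster 3 supplied 84.5% of the transcripts of the high sum and 24% of the low sum, and cluster 4, where Ctsb and Ctsd were lowest, supplied 0% and 58.3%. The part of this mix in the plate 1 values was not tested.

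Splitting at the median of each plate and cluster gave both sides nearly equal cell numbers of each cluster, but unequal shares of transcripts. Of 7 cathepsin genes tested, 0 passed. The share called was 0% of 3540 genes, with 186 genes at an unadjusted p under 0.05 in edgeR and 49 in DESeq2, which also called 0. The largest cathepsin difference was that of Ctss, which was at 336, 1024 and 161 CPM in the high cells and 975, 1050 and 424 in the low cells, a log2 difference of -0.86 (SE 0.28, edgeR adjusted p = 0.630). Microglia markers moved with it, summing to 3073, 5372 and 1208 CPM in the high cells and 4838, 8349 and 3246 in the low cells. Cluster 1 supplied 7.58, 15.5 and 3.06% of the transcripts on the high side and 12.2, 20.5 and 7.99% on the low side, from nearly equal numbers of cells. Cluster 2 supplied 11.9, 43.3 and 45.7% on the high side and 4.71, 21.0 and 33.8% on the low side. Cluster 0 supplied 0, 41.3 and 46.6% against 13.4, 51.8 and 53.6%, and cluster 3 on plate 1 supplied 55.9% against 32.9%. The part of this mix in the cathepsin differences was not tested. With cells thinned to equal depth, the Ctss difference was -0.05. The other cathepsin genes lay between -0.50 for Ctsf and 0.51 for Ctsa.

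**Figure D4:**
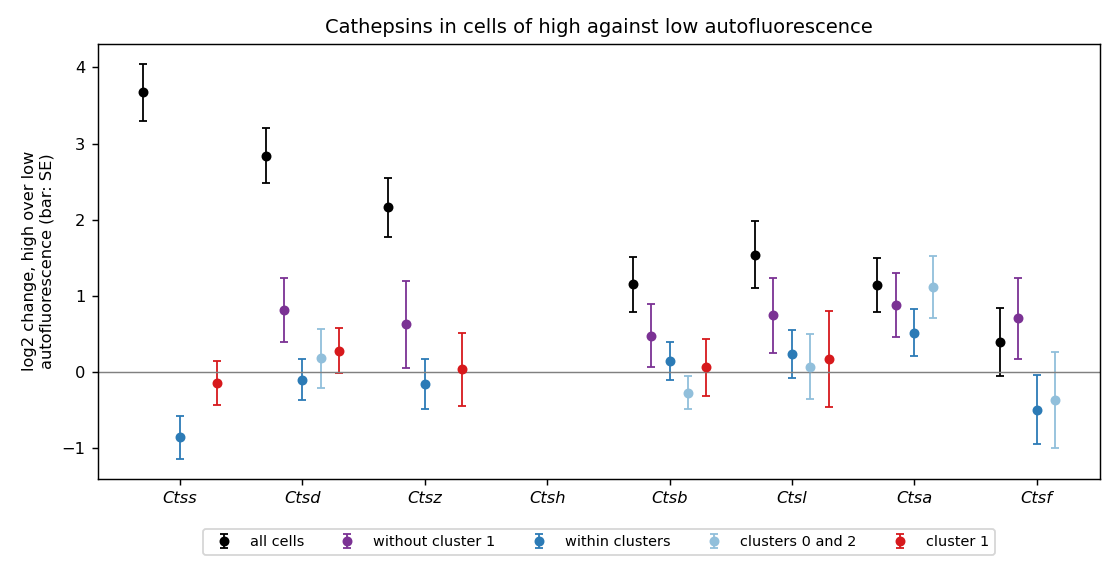
Log2 difference of each cathepsin gene between high and low autofluorescence in 5 comparisons, with bars of 1 standard error from edgeR; genes too rare to be tested have no point. Ctss, Ctsd and Ctsz stand at 2.16 to 3.67 over all cells and lie between -0.86 and 0.81 in the other comparisons in which they were tested.

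In the microglia-like cells alone, no cathepsin tested differed detectably between high and low autofluorescence. Ctsa, Ctsf and Ctsh were too rare to be tested there. Ctss was at 3693, 6571 and 4588 CPM in the high cells of plates 1, 2 and 3 and 6878, 5092 and 5043 in the low cells. It was lower on plates 1 and 3 and higher on plate 2, and the log2 difference was -0.15 (SE 0.29, edgeR adjusted p = 0.999). Ctsd was at 6379, 5744 and 3470 CPM against 3777, 5197 and 4169, a log2 difference of 0.27 (SE 0.30). Of these 3 genes, Ctsb varied most between the high sums in CPM, at 2769, 4346 and 783 CPM against 2870, 2058 and 2553, and differed by 0.06 (SE 0.37). Of 5 cathepsins tested among 210 genes, 0 were called, as was 0% of the genes, with 2 genes at an unadjusted p under 0.05 in edgeR and 0 in DESeq2. The sums held only 4 to 9 cells each, so the standard errors leave room for differences of either sign. Median transcripts per cell were lower in the high cells, at 2911, 3291 and 1732, than in the low cells, at 4370, 3853 and 2517, and the part of depth in these values was not tested.

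**Figure D5:**
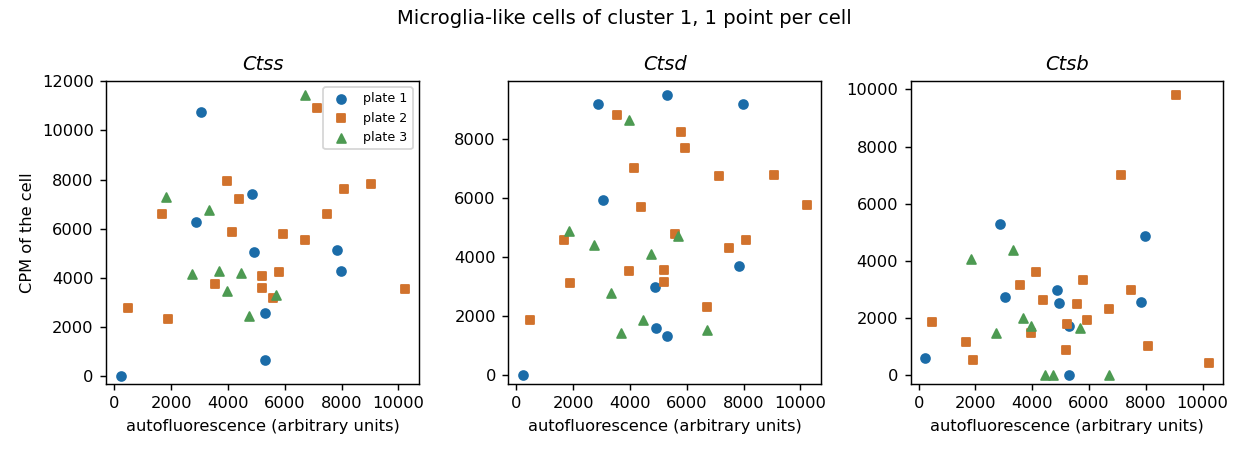
Ctss, Ctsd and Ctsb level of each of the 36 cells of cluster 1 in CPM of that cell, against its autofluorescence in arbitrary units. The marker shape gives the plate. Spearman's rho for Ctss was -0.17, 0.34 and -0.25 on plates 1, 2 and 3. It was 0.32, 0.26 and -0.28 for Ctsd and -0.03, 0.18 and -0.68 for Ctsb. The signs differed between plates, and no common slope was tested. At 218 units, 1 cell of plate 1 had neither a Ctss nor a Ctsd transcript.

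In the oligodendrocyte-like clusters 0 and 2, the cathepsin with the largest difference was Ctsa. It was at 182 and 163 CPM in the high cells of plates 2 and 3 and at 107 and 55.3 CPM in the low cells, and the high sums lay above the low sums. The log2 difference was 1.11 (SE 0.40, edgeR adjusted p = 0.706), which did not pass. Plate 1 was not used, having 1 high cell, and it went the other way, at 117 against 394 CPM. Cluster 2, where the Ctsa level was higher than in cluster 0, supplied 51.2% of the transcripts of the high sum and 28.8% of the low sum on plate 2, and 49.5% and 38.7% on plate 3. The part of this mix in the Ctsa difference was not tested. Ctsb was at 535 and 539 CPM against 701 and 596, a log2 difference of -0.28 (SE 0.22, edgeR adjusted p = 0.966). Of 3138 genes tested 0.0319% were called, and of 5 cathepsins 0 were, in a fit with 1 residual degree of freedom, beside 196 genes at an unadjusted p under 0.05.

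The difference between the effect in cluster 1 and that in clusters 0 and 2 was tested as an interaction. Of 7 cathepsins tested 0 passed, as did 0% of 1138 genes, with 39 genes at an unadjusted p under 0.05 in edgeR and 27 in DESeq2, which also called 0. The cathepsin differences ran from -1.05 for Ctsz (SE 0.79) to 0.71 for Ctsh (SE 1.91), and these errors are too wide to show that the clusters act alike. Ctsz, Ctss and Ctsh were too rare to be tested in clusters 0 and 2 alone. There Ctsh had 0 transcripts in both classes of plate 2 and 2 in each class of plate 3. Ctss had 2 and 6 transcripts in the high cells of these plates and 1 and 4 in the low cells. For Ctsh and Ctss the interaction thus has little data outside cluster 1.

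Over single cells, Spearman's rho between a gene's share of the cell's transcripts and autofluorescence was taken within each of the 8 plate and cluster groups with at least 6 cells, as a description. Ctsa had a rho above 0 in 7 of 8 groups, with a median of 0.27 and a range from -0.06 to 0.52. Ctsz was also above 0 in 7 of 8, with a median of 0.15, and Ctsd in 6 of 8, with a median of 0.18. Ctsb was above 0 in 3 of 8 groups (median -0.02) and Ctss in 3 of 7 (median -0.13), so the leading genes of the clusters had no common sign. Some Ctsz and Ctss groups had few cells with a transcript. In cluster 2 of plate 3, Ctsz was found in 4 of 22 cells and Ctss in 2. Ctsh in cluster 1 gave rho of -0.89, 0.03 and 0.82 on plates 1, 2 and 3, from 4, 9 and 7 cells with a transcript, which shows how little 1 plate fixes for a rare gene. All 8 genes summed were above 0 in 4 of 8 groups, with a median of -0.03. The total transcripts of a cell had a rho above 0 in 7 of 8 groups, with a median of 0.30, and their part in the Ctsa and Ctsz values was not tested.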

How the data were processed

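Single cells on 3 SORT-seq plates were analysed from the filtered expression table, whose values are expected counts, estimated transcripts that the authors made from molecular identifiers and deposited without scaling to depth. The correction for colliding identifiers was inverted exactly, giving whole identifiers for 100% of 349688 values above 0 (tolerance 1e-06). The autofluorescence intensity of each cell was used as the authors deposited it; the clusters and phases are also the authors'. The submitters' processing notes list Seurat 4.1.1, BWA 0.7.15 and R 4.2.0 with mm10 and hg19, giving no role to any; no source used here gives the annotation, the cell filter or the instrument settings. Library names ending in the plate number assigned cells to plates. Of the per-cell values, 13 columns were not used.

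The members, marker lists and pathway lists were chosen with earlier results of these data known. Transcripts were summed per plate and class or cluster (at least 3 cells), rounded and tested with edgeR 4.0.16 (TMM, filterByExpr, quasi-likelihood F test, blocking on plate, two-sided, Benjamini-Hochberg at 0.05 over all genes tested); the standard error is the log2 difference over the root of F. The procedure was tested on simulated data. A plate sum does not separate animals. The p-values draw on how the difference between classes varied from plate to plate, together with counting variance and a spread borrowed over all genes tested. They do not measure variation between animals. Alternatives were DESeq2 1.42.0, RLE size factors, no filter, no replicate block, thinned cells and leaving out each plate. Named genes were all 8 members, the 3 most like each member with at least 100 transcripts, and, of the pathway lists, genes past the threshold, otherwise those with most transcripts; Ctsk was named after its values were seen. Gene positions are from the GENCODE annotation of mm10.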

Additional observations from a re-analysis of the deposited data

Results flagged for a closer look

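The unfiltered table holds 235 wells, of which 86 were left out of the filtered table and enter no comparison. Cathepsin transcripts appeared there above the limit that a count of 0 allows, 3 transcripts over all these wells. Ctsb had 13 estimated transcripts, in 12 wells, Ctsd had 10.0 in 8 wells, Ctss 10.0 in 7 wells and Ctsl 5.00 in 4 wells. Of 28702 transcripts in all, these were 453, 348, 348 and 174 CPM, respectively. Ctsa and Ctsz had 3 transcripts each, at the limit, Ctsh had 1 and Ctsf 0.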

How the results depend on the processing

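Over all cells, 150 genes passed, against 307 without a filter on low counts, 28 in thinned cells and 39 to 180 when 1 plate was left out, 39 without plate 2. Without the replicate block, 0 genes passed over all cells (207 at an unadjusted p under 0.05), 0 without cluster 1 and 0 in clusters 0 and 2, and Ctss and Ctsd had edgeR adjusted p of 0.289 and 0.234 over all cells. Each plate holds both classes of cells, which is where the pairing comes from. Within clusters, 0 genes passed, against 2 without a filter, 0 to 4 when 1 plate was left out, and 3 of 3412 without plate and cluster groups of 1 cell, an alternative chosen after seeing the data, in which Ctss was at -0.99 (edgeR adjusted p = 0.0931). Without cluster 1, 11 genes passed, against 7 with RLE size factors, 74 without a filter, 0 in thinned cells and 0 to 7 when 1 plate was left out. In clusters 0 and 2, 1 gene passed, against 0 without a filter, with DESeq2 and in thinned cells; leaving out plate 2 or 3 left no residual degrees of freedom and was not run. The Ctsb share in cluster 0 was 59.7% in thinned cells and 45.0% with sums of 1 cell included. In cluster 2 it was 70.8% in thinned cells. The Ctsz share in cluster 4 was 100% in thinned cells, where only 1 cell held a Ctsz identifier.

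No cathepsin that passed changed sign. Changes of sign among those that did not pass were, within clusters, Ctsd at 0.11 in thinned cells. In cluster 1 without a filter they were Ctsb at -0.28, Ctsd at -0.0204, Ctsl at -0.12 and Ctsz at -0.30, with DESeq2 Ctsb at -0.0418 and Ctsz at -0.0828, and with no replicate block Ctsz at -0.00197. In the interaction, thinned cells gave 0.083 for Ctsd, 1.72 for Ctss and 0.81 for Ctsz, and DESeq2 gave -0.20 for Ctsl. With 1 plate left out, the ranges that crossed 0 were, within clusters, -0.0629 to 0.36 for Ctsb, -0.48 to 0.17 for Ctsd, -0.83 to 0.11 for Ctsf, -0.0737 to 0.69 for Ctsl and -0.64 to 0.21 for Ctsz. Without cluster 1 they were -0.12 to 0.83 for Ctsb, -0.0333 to 1.55 for Ctsl and -0.0145 to 1.14 for Ctsz. In cluster 1 they were -0.70 to 0.63 for Ctsb, -0.0600 to 0.49 for Ctsd, -0.52 to 0.11 for Ctss and -0.61 to 0.53 for Ctsz. In the interaction they were -0.80 to 0.70 for Ctsb, -0.28 to 0.0321 for Ctsd, -0.71 to 1.74 for Ctsh, -0.52 to 0.27 for Ctsl and -0.96 to 0.054 for Ctss. The cause of these changes was not tested.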

Other observations

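The authors' phase calls split the microglia-like cells mainly into G0, with 2, 7 and 7 cells on plates 1, 2 and 3, and G1, with 5, 10 and 2 cells. Ctsb was at 3400, 4982 and 2116 CPM in the G0 cells and at 2624, 2206 and 1113 CPM in the G1 cells, higher in G0 on 3 of 3 plates. Ctsd was at 6810, 5756 and 3963 CPM in G0 and 4155, 5381 and 3714 CPM in G1, also higher on 3 of 3 plates. Ctss had no common order, at 3199, 5761 and 4560 CPM in G0 and 6700, 5524 and 5942 CPM in G1. Phases were called from the same expression values and some sums hold 2 cells, so no test was made.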
